A study of Arabidopsis thaliana with 18 samples.

Results

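BAT1 (AT4G31910, on chromosome 4 of Arabidopsis thaliana) encodes an acyltransferase of the BAHD family, and this report follows its level array by array. The gene was chosen by its name and selected on earlier results of these same arrays, in which its level varied with zone and treatment, so its own values are given as a description with no test. A single probe set of the Affymetrix ATH1 array reports BAT1, and it is 1 of 22746 probe sets other than controls. In the reference gene table the symbol BAT1 also belongs to an amino acid transporter at another locus, and the acyltransferase was matched by its locus code.

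The study sorted GFP-positive protoplasts from Arabidopsis roots and hybridised their RNA to 18 arrays. In 16 of them the plants were wild-type Columbia with an ER-localised GFP under the ARR15 promoter, a type-A response regulator that responds to cytokinin. Pooled roots of these 8-day seedlings were cut into a basal segment (cambium), a middle segment (transition cambium) and an apical segment (procambium). Untreated plants gave 3 cambium, 2 transition cambium and 2 procambium arrays. BAP, a synthetic cytokinin, was given at 100 nM in the medium for 48 h after 6 days of growth, and each zone of the treated roots gave 3 arrays. ARR5::GFP plants of the same accession gave the other 2 arrays at 6 days of age, sorted from the lower root without cutting it into segments, and the labels place that reporter in procambium and lateral root cap. Each reporter marks the cells in which its promoter is active, and ARR15 is itself a cytokinin target, and whether the sorted population differed between treatments was not tested.

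Brassinosteroids are plant steroid hormones that promote cell expansion and vascular differentiation. The receptor kinase BRI1 and its relatives BRL1 and BRL3 bind the hormone at the cell surface, and a kinase cascade then releases the transcription factors BZR1 and BES1 to act on growth genes. The amount of active hormone is set by synthesis and by inactivation through hydroxylation, glucosylation, sulfonation, reduction or acylation. BAT1 belongs to the last of these: plants that overexpress it are dwarfed and have less active brassinosteroid.

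Expression values are GCRMA log2 signals, on which a difference of 1 is a doubling. The lowest value on every array was 2.17, and log2 5 was used as the level above which a probe set was counted as measured. Between 47.2% and 49.9% of the probe sets reached that level on each array, and 13465 reached it on at least 2 of the 18 arrays. Over these 13465, arrays of a group correlated with each other at 0.920 to 0.975. The labels name no batch or date, and an effect of the treatment and one of a batch cannot be told apart. In sorted, pooled material fewer cells of a type and less RNA per cell cannot be told apart either.

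BAT1 was high in untreated cambium and transition cambium and lower in untreated procambium. The 3 untreated cambium arrays read log2 9.58, 9.27 and 8.24 (mean 9.03 ± 0.70, SD, n = 3). The 2 untreated transition cambium arrays read 9.20 and 9.39 (mean 9.30, n = 2), and the 2 untreated procambium arrays read 7.36 and 6.99 (mean 7.17, n = 2). Every cambium and transition cambium array therefore lay above both procambium arrays, while the first pair of zones overlapped.

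BAP-treated plants had less BAT1 signal in all 3 zones, and the order of the zones was different. The BAP cambium arrays read 5.96, 4.37 and 4.37 (mean 4.90 ± 0.92, n = 3), so that 1 of 3 reached log2 5. The BAP transition cambium arrays read 7.37, 8.01 and 7.88 (mean 7.75 ± 0.34, n = 3), and the BAP procambium arrays read 6.77, 5.40 and 5.60 (mean 5.93 ± 0.74, n = 3). Cambium, among the highest zones without BAP, had the lowest mean of all 7 groups with it, and with BAP every transition cambium array lay above those of both other zones.

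The ARR5::GFP cells gave the most divided pair of readings. One array read 10.53, the highest value of the series, and the other 8.07 (mean 9.30 ± 1.74, n = 2). Both lay above the untreated procambium arrays.

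**Figure D1:**
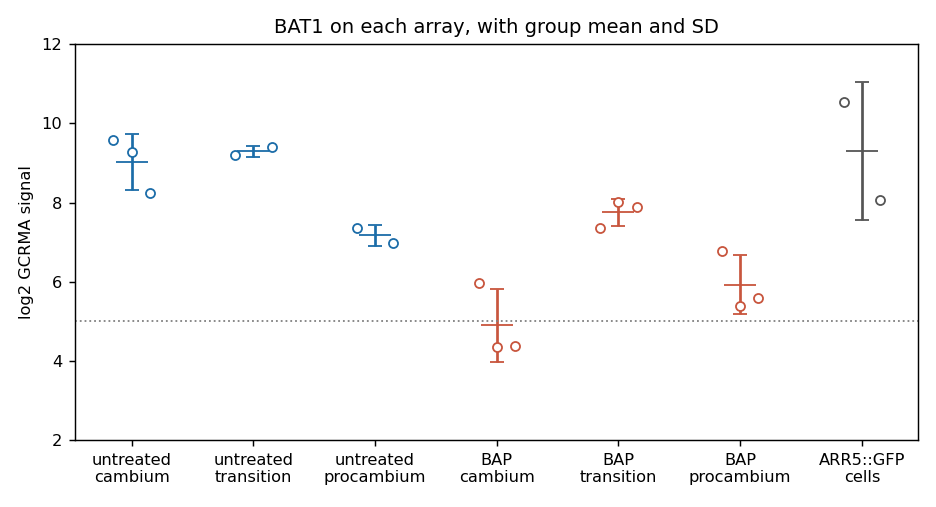
Log2 level of BAT1 on each of the 18 arrays (points), by group on the horizontal axis, with the mean and SD of each group as bars and log2 5 as a dotted line. The untreated cambium and transition cambium arrays sit between 8.24 and 9.58, and 2 of the 3 BAP cambium arrays lie below the dotted line at 4.37.

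Levels were ranked among the 13465 probe sets kept over all 18 arrays (those at log2 5 or above on at least 2 of them). Among these BAT1 stood at the 83.1, 79.5 and 66.2 percentile of level on the 3 untreated cambium arrays. On the BAP cambium arrays it stood at the 29.1, 10.9 and 10.9 percentile. The percentiles were 77.4 and 80.9 in untreated transition cambium against 51.3, 60.7 and 58.7 with BAP, and 50.6 and 47.1 in untreated procambium against 42.9, 22.0 and 24.7 with BAP. BAT1 thus moved from the brighter part of the array to the dim end in cambium and to the middle of the array in transition cambium.

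Ordered by mean, the groups ran from ARR5::GFP cells (9.30) through untreated transition cambium (9.30), untreated cambium (9.03), BAP transition cambium (7.75), untreated procambium (7.17) and BAP procambium (5.93) to BAP cambium (4.90). The first 3 groups overlapped with their neighbours in this order, as did the last 2. The steps from untreated cambium to BAP transition cambium (1.28) and from untreated to BAP procambium (1.25) separated all arrays. BAP transition cambium and untreated procambium also did not overlap, but by a narrow margin: their nearest arrays read 7.37 and 7.36.

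Taken zone against zone without BAP, BAT1 was higher in cambium than in procambium by 1.86 on the log2 scale (3.62-fold), and higher in transition cambium than in procambium by 2.12 (4.35-fold). Arrays that did not overlap, with the first zone higher, were also found for 26.4% and 34.4% of the probe sets kept. Untreated cambium and transition cambium differed by -0.27, which is within the spread of their arrays, and the sign of that difference turned when 1 array was left out (range -0.54 to 0.13).

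With BAP, transition cambium exceeded procambium by 1.83 (3.55-fold), close to the value without BAP, and 23.8% of the probe sets kept were likewise higher with no overlap. Cambium was below transition cambium by 2.85 (7.21-fold), a separation in that direction that 10.9% of the probe sets kept showed. The cambium mean was 1.02 below that of procambium, with overlapping arrays, where without BAP it had been above it.

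Of the 3 zones, cambium had the largest difference between BAP-treated and untreated plants. There the mean was -4.13 from the untreated level (17.5-fold lower, with 1 of 3 BAP arrays at log2 5, so that the size depends on the background model of GCRMA). In transition cambium the difference was -1.54 (2.92-fold lower) and in procambium -1.25 (2.38-fold lower). Arrays that did not overlap, with BAP lower, were found for 16.5%, 24.1% and 19.2% of the probe sets kept in these zones. Averaged over the 3 zones the difference was -2.31 (4.95-fold lower), while the median over all probe sets kept was near 0.

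Counted from the most negative of the 13202 differences, BAT1 ranked 18 in cambium, 583 in transition cambium and 975 in procambium; the rank in cambium, and any count that uses it, rests on BAP values of which 1 of 3 reached log2 5. The cambium difference minus that in procambium was -2.88, and minus that in transition cambium -2.58, whereas transition cambium and procambium differed by -0.29, a value whose sign turned when 1 array was left out. Lower means under BAP in all 3 zones were common (3117 probe sets, 23.6% of those kept), and 263 (1.99%) were lower by at least 1 in each zone. Apart from BAT1, 6 probe sets were lower at least as far as BAT1 in every zone. Of these, 2 have a single gene in the annotation, AT5G43180 (-4.43 in cambium, -2.89 in transition cambium and -2.26 in procambium) and AT4G30450 (-4.89, -3.43 and -3.84).

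**Figure D2:**
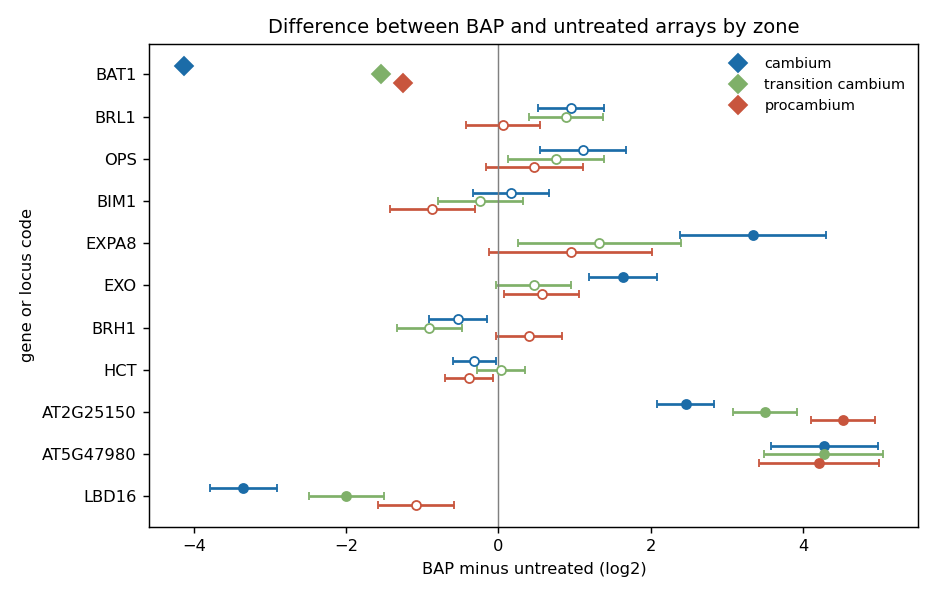
Difference in log2 level between BAP-treated and untreated plants (horizontal axis) in cambium, transition cambium and procambium, for BAT1 (diamonds, with no error and no test), LBD16 and the listed brassinosteroid and BAHD genes; bars are limma standard errors, and filled circles passed an adjusted p of 0.05. Points are fitted differences, also for genes whose untreated arrays lay below log2 5. BAT1 lies at -4.13, -1.54 and -1.25, while in cambium EXPA8 and EXO lie above 0 and BRH1 below it.

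BAT1 varied more between arrays of a group than most probe sets. Its within-group SD, pooled over the 7 groups, was 0.80 log2 units. The median over the 13465 probe sets kept over 18 arrays was 0.46, and 88.5% of them had a smaller SD. Among the 2318 probe sets with a mean level within 0.5 of that of BAT1, 90.0% had a smaller one. The gap of 2.46 between the ARR5::GFP arrays was larger than the gap of 97.0% of the probe sets kept over 18 arrays. This pair had the largest BAT1 SD of the 7 groups (1.74, against 0.14 to 0.92 in the others) and weighs on the pooled value of 0.80. ARR5::GFP cells exceeded untreated procambium by 2.13 (4.38-fold), where 25.5% of probe sets were higher with no overlap. That difference was 3.36 with the brighter ARR5::GFP array alone and 0.90 with the dimmer alone. Reporter, seedling age and the cutting of the root differ together between these groups and cannot be told apart.

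Other genes of the hormone's pathway were taken from lists of 86 brassinosteroid genes, of which 83 have their symbol in the reference table and 8 have a probe set with a single gene in the annotation used here. BAT1 was the only one of 9 inactivation genes among them, and 0 of 17 synthesis genes had such a probe set. The 7 others were the receptor BRL1, the phloem regulator OPS, the transcription factors BIM1 and CES, and the response genes EXPA8, EXO and BRH1. CES lay at the lowest value of 2.17 on all 18 arrays. Together with HCT, the BAHD enzyme of lignin precursor synthesis, 7 genes besides BAT1 could be tested with limma.

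Under BAP 2 of these 7 genes, EXPA8 and EXO, were called higher in cambium and 0 lower, where 7.71% of all probe sets tested were called higher and 7.15% lower. EXPA8, a cell wall loosening expansin, read 5.88, 6.18 and 6.22 on the BAP cambium arrays and no more than 2.90 on the untreated ones, so that it rose at least 2.14-fold (limma adjusted p = 0.0301). EXO, an apoplastic protein that promotes cell expansion, rose by 1.64 (SE 0.44, limma adjusted p = 0.0236), from 10.17, 10.82 and 9.39 to 11.83, 11.73 and 11.73. In both genes the mean was higher in BAP than in untreated cambium, opposite in sign to BAT1. BRH1, the other response gene measured, was not called. Like BAT1 it had lower means with BAP in cambium (8.10 to 7.56) and transition cambium (9.02 to 8.11), but a higher one in procambium (7.35 to 7.75). The EXPA8 call was lost without any 1 of the 6 arrays (adjusted p 0.0568 to 0.0841), and the EXO call without 5 of the 6, each left out alone (0.0537 to 0.099).

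In transition cambium and in procambium 0 of the 7 genes passed limma's adjusted p under BAP, and 0 had an unadjusted p under 0.05; 9.4% and 14.1% of all probe sets passed there. On the average over zones EXPA8 (adjusted p = 0.0282, with no size given because every untreated array lay below log2 5) and EXO (0.89, SE 0.28, adjusted p = 0.0249) passed as higher and 0 of 7 as lower, beside 15.2% and 15% of all probe sets. The averaged EXPA8 call was lost without any of 5 single arrays (BAP procambium 2 or 3, untreated procambium 1, untreated transition cambium 1 or 2; 0.0527 to 0.0698), and the EXO call without untreated procambium array 1 (0.0769) or untreated transition cambium array 2 (0.108). The median difference of the 7 genes was 0.95 in cambium, 0.46 in transition cambium and 0.40 in procambium, and that of all probe sets tested was 0.02, -0.03 and -0.01. None of the 7 passed for a BAP effect that differed between any pair of zones (limma, 1 unadjusted p under 0.05 over the 3 pairs, for BRH1), where 8.97% of all probe sets passed for cambium against procambium, 0.371% for cambium against transition cambium and 5.27% for transition cambium against procambium.

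Between the zones, every call among the 7 genes was for a higher level in cambium or transition cambium than in procambium. Without BAP, 2 of 7 genes were called higher in cambium than in procambium and 0 lower, beside 18.4% of all probe sets higher and 17.4% lower. For untreated transition cambium against procambium 4 of 7 were higher and 0 lower, beside 15.6% and 12.5% of all probe sets, and without untreated transition cambium array 1 the count was 0. With BAP 3 were higher and 0 lower in cambium (16.3% and 14.7% of all probe sets), and 4 were higher and 0 lower in transition cambium (15.7% and 13.5%). Between cambium and transition cambium 0 of 7 passed without BAP (1 unadjusted p under 0.05) and 0 passed with it (2 unadjusted p under 0.05), against 0.757% and 1.26% of all probe sets. Between ARR5::GFP cells and untreated procambium 0 of 7 passed and 0 had an unadjusted p under 0.05, where 31.5% of all probe sets passed.

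BRL1 is a brassinosteroid receptor kinase of vascular tissue. It read 5.27, 5.57 and 5.70 in untreated cambium and 2.50 and 2.40 in untreated procambium, at least 1.43-fold apart (limma adjusted p = 0.000278). With BAP it read 6.57, 6.71 and 6.11 in cambium and 2.51 on all 3 procambium arrays, at least 2.76-fold apart (adjusted p = 8.69e-06), and BAP transition cambium was at least 1.73-fold above procambium (adjusted p = 6.11e-05). The BRL1 mean was 6.46 in BAP cambium and 5.51 in untreated cambium, and the difference was not called. In untreated transition cambium the arrays read 5.97 and 3.85, and the call against procambium (adjusted p = 0.00349) was lost without the first of them (0.0528).

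EXO was higher in cambium than in procambium without BAP (1.54, SE 0.50, limma adjusted p = 0.0256) and with it (2.61, SE 0.44, adjusted p = 0.000387). It was also higher in transition cambium than in procambium, by 2.07 without BAP (adjusted p = 0.011) and by 1.97 with it (adjusted p = 0.00386). Both calls without BAP rested on single arrays: the first was lost without untreated cambium array 1 (0.0574), cambium array 2 (0.0951) or procambium array 1 (0.179), and the second without procambium array 1 (0.0781) or transition cambium array 1 (0.168).

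OPS, which promotes phloem differentiation and brassinosteroid signalling, read 5.92, 5.70 and 6.11 in BAP transition cambium and 2.35, 3.86 and 2.99 in BAP procambium, at least 1.88-fold apart (limma adjusted p = 0.00168). Its calls for untreated transition cambium against procambium (at least 1.11-fold, adjusted p = 0.0134) and for BAP cambium against procambium (adjusted p = 0.0176, with no size given because the BAP cambium mean lay below log2 5) were each lost without any of 3 single arrays. BRH1, a RING finger gene that responds to brassinosteroid, was higher in untreated transition cambium than in procambium by 1.66 (SE 0.47, adjusted p = 0.0163), a call lost without procambium array 1 (0.108) or transition cambium array 1 (0.115). BIM1, a partner of BES1, passed in none of the comparisons, with group means from 7.26 to 8.95.

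Of the BAHD family, 17 members were listed, 12 have their symbol in the reference table and 7 have a probe set with a single gene, BAT1 included. HCT had group means of 9.80 to 11.02 and was higher in BAP transition cambium than in BAP procambium by 1.22 (SE 0.28, limma adjusted p = 0.00501). In no zone did it pass for a BAP effect, with differences of -0.32 in cambium, 0.03 in transition cambium and -0.39 in procambium. The acyltransferases SHT, FACT, AT5MAT and CHAT read no more than 2.33 on any array. SDT, which makes spermidine conjugates, reached log2 5 on 1 array, an ARR5::GFP array at 6.59.

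Some loci entered by hand in these lists are known to the reference table only by their locus codes, and they stand outside the counts. AT5G47980, from the BAHD list, was higher with BAP by 4.28 in cambium (limma adjusted p = 0.00114), 4.27 in transition cambium (adjusted p = 0.0038) and 4.21 in procambium (adjusted p = 0.00205), with 1 of 3 and 1 of 2 untreated arrays at log2 5 in the first pair of zones and 2 of 2 in procambium. The transition cambium call was lost without untreated transition cambium array 1 (0.0613). AT2G25150, from the same list, was higher with BAP at least 1.71-fold in transition cambium (adjusted p = 0.000133) and at least 5.65-fold in procambium (adjusted p = 6.1e-06). In cambium it was also called higher (adjusted p = 0.000708), but the BAP mean of 4.93 lay below log2 5 and no size is given. Both loci differed from BAT1 in the sign of the BAP difference in every zone. AT1G27190, from the receptor list, was lower with BAP on the average over zones (-0.78, adjusted p = 0.0418), and this call was lost without any of 11 of the 16 arrays (0.0521 to 0.141).

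ARR15, the gene whose promoter drives the reporter, and LBD16, a transcription factor of lateral root founder cells, moved with the treatment in opposite directions. ARR15 read between 2.51 and 3.12 on the untreated arrays of the 3 zones and between 5.32 and 7.66 on the BAP arrays. It was at least 3.00-fold higher with BAP in cambium, at least 1.90-fold in transition cambium and at least 3.70-fold in procambium (limma adjusted p = 2.35e-05, 0.000772 and 1.53e-05). Over 18 arrays that share groups and treatment, the level of ARR15 correlated with that of BAT1 at -0.75 (Pearson).

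LBD16 is the only member measured of 3 genes listed as pericycle and lateral root markers, so the summed level of that list is its own level. It read 5.85, 6.54 and 6.82 in untreated cambium and 2.85, 3.47 and 2.83 in BAP cambium, at least 2.64-fold lower (limma adjusted p = 0.000239). In transition cambium it read 5.83 and 5.77 without BAP and 4.16, 4.11 and 3.14 with it, at least 1.74-fold lower (adjusted p = 0.0209), a call lost without BAP array 3 or either untreated array. In procambium it read 7.05 and 6.49 without BAP and 6.71, 5.02 and 5.33 with it (-1.09, adjusted p = 0.176). The BAP effect in cambium minus that in procambium was -2.26 (SE 0.67, adjusted p = 0.0476), a size that rests on BAP cambium values below log2 5 and a call lost under most alternatives, given in the closing section. The ARR5::GFP arrays read 9.51 and 5.70, and the first of them was the brighter for BAT1 too. The part of LBD16-expressing cells in the BAT1 levels was not tested.

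**Figure D3:**
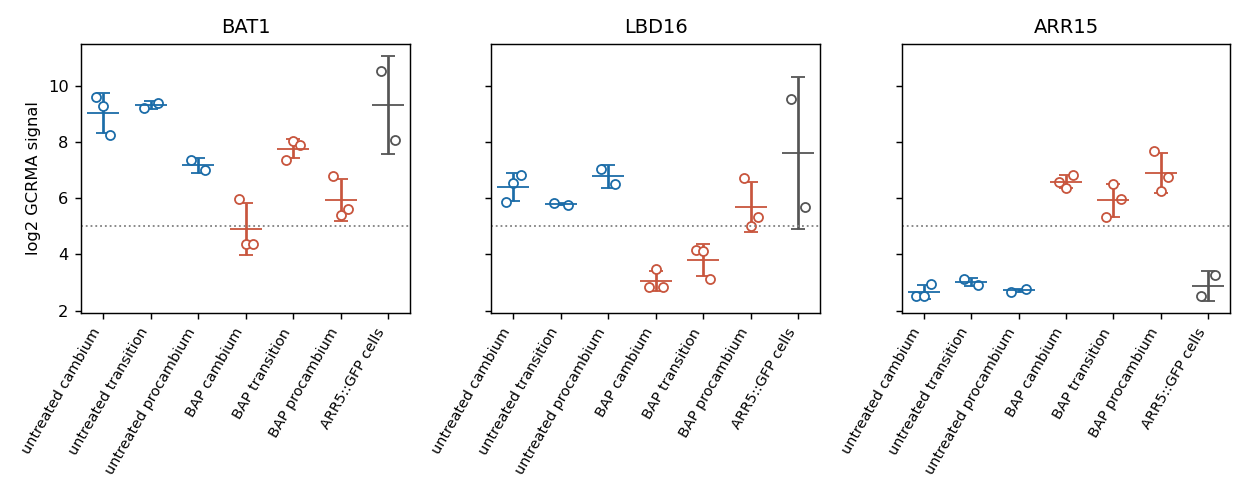
Log2 levels of BAT1, LBD16 and ARR15 on each of the 18 arrays, by group on the horizontal axis, with group means and SDs as bars and log2 5 as a dotted line. BAT1 and LBD16 are lowest in BAP cambium (means 4.90 and 3.05), while ARR15 lies below the dotted line in all untreated groups.

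Marker genes were then read in the labelled zones, and few of them have a probe set in the annotation used here. The marker lists were chosen with earlier results of these data known. Their levels therefore describe the zones and cannot check the labels. Of 10 cambium and procambium markers 5 could be measured, CLE41, CLE44, MOL1, LHW and PHV. Their summed signal was log2 10.86 to 11.36 in untreated cambium, 11.12 to 11.24 in untreated transition cambium and 9.39 to 9.42 in untreated procambium. With BAP the ranges were 10.65 to 11.10, 10.91 to 11.11 and 9.31 to 9.48. The sum was therefore higher in cambium and transition cambium than in procambium with and without BAP. BAT1 was lower in BAP cambium than in BAP transition cambium and overlapped with BAP procambium. Linear signals were summed, so the brighter genes weigh most. With BAP the LHW mean was 8.16 in transition cambium and 8.18 in procambium, while CLE41, CLE44, MOL1 and PHV had higher means in transition cambium. In ARR5::GFP cells the sum was 8.59 to 9.02, with CLE41 and CLE44 below log2 5 on both arrays. CLE44 was also below log2 5 in procambium, on both untreated and all BAP arrays.

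Of 4 root cap markers 1 was measured, AT1G65570, known to the reference table only by its locus code. It lay below log2 5 in every untreated zone, at 10.34 to 11.50 in BAP procambium, at 3.49 to 7.65 in BAP transition cambium and at 13.81 to 14.21 in ARR5::GFP cells. EXPA7, an expansin of root hairs and 1 of 4 epidermis markers, was at 2.39 to 7.37 in BAP procambium and 7.67 to 9.75 in ARR5::GFP cells, and below log2 5 elsewhere. Of 3 ground tissue markers 1 was measured and lay below log2 5 on every array, and 0 of the 5 xylem and 0 of the 4 phloem markers had a probe set. The root cap marker was thus above log2 5 on all BAP procambium and ARR5::GFP arrays and on part of the BAP transition cambium arrays, and EXPA7 on both ARR5::GFP arrays and 2 of 3 BAP procambium arrays, and their part in the BAT1 levels there was not tested.

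The genes most like BAT1 were sought among 7167 probe sets kept over 18 arrays that have a single gene. Over the 18 arrays, 13 correlated with BAT1 at 0.8 or more (Pearson) and 1 at -0.8 or less. The points share their groups and treatment, so the values describe likeness and nothing more. The closest was AT1G48750 (r = 0.92), with means of 11.85, 12.02 and 11.45 in untreated cambium, transition cambium and procambium, 8.86, 11.00 and 9.35 with BAP, and 11.34 in ARR5::GFP cells. Its lowest mean, like that of BAT1, was in BAP cambium.

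AT3G24110 (r = 0.88) and AT4G34600 (r = 0.87) followed. AT4G34600, like BAT1, had its largest BAP difference in cambium (-4.29, with -1.75 in transition cambium and -0.52 in procambium). Its mean in ARR5::GFP cells was 7.37, below the 9.30 of BAT1. AT4G30450 (r = 0.86), which was lower with BAP by more than 3 in each zone, differed from BAT1 in having nearly equal untreated means of 10.39, 10.64 and 10.32. The remaining 6 of the 10 most alike, AT3G58760, AT1G33700, AT3G60070, AT3G24190, AT3G53100 and AT3G14340, had correlations of 0.83 to 0.84. All 10 had a lower mean in BAP cambium than in untreated cambium, by 1.01 to 4.89.

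None of these 10 has a symbol in the reference table. The 6 most alike that do were looked up after their values were seen. SUFE2, an activator of plastid iron-sulfur cluster assembly, had a correlation of 0.81, TET8, a tetraspanin, 0.77, and RALFL32, a RALF-like peptide, 0.75. DER2.1, a derlin of the endoplasmic reticulum, followed with 0.74, SHL1 with 0.73 and ATG8D, an autophagy protein, with 0.71. In cambium the BAP differences of these 6 lay between -1.55 and -0.83, all smaller than the -4.13 of BAT1.

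The 5 most opposite genes were AT4G28990 (r = -0.84), AT4G23820 (-0.79), AT1G56020 (-0.78), HTB1 (-0.77) and AT5G44500 (-0.76). Every group mean of AT5G44500 lay below log2 5 (2.83 to 4.91), and those of AT4G23820 and AT1G56020 lay on both sides of it. HTB1 encodes a histone H2B and had means of 8.94 in untreated cambium and 10.19 in BAP cambium. Among the listed genes, HCT correlated with BAT1 at 0.56, LBD16 at 0.63 and EXPA8 at -0.53. The ranking depended on the points used: 2 of the 10 most alike were also among the first 10 over the 16 ARR15::GFP arrays, 2 over the 7 group means and 7 by Spearman's rho. Of the 5 most opposite, 1, 2 and 1 were also among the last 5 by these measures.

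**Figure D4:**
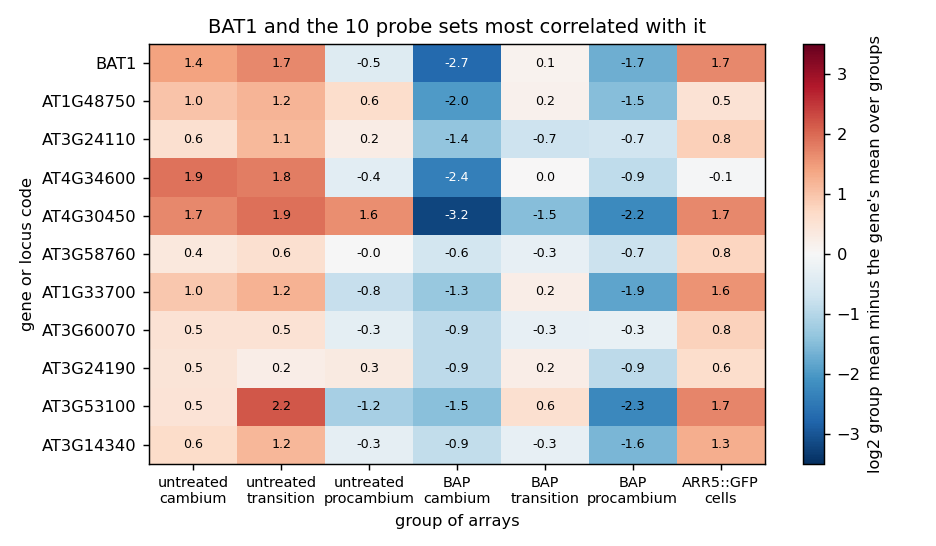
Heat map of log2 group means minus each gene's mean over the groups (colour scale and printed value) for BAT1 and the 10 genes most like it (vertical axis), by group on the horizontal axis. BAT1 and AT1G48750 both have their lowest mean in BAP cambium.

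On the chromosome BAT1 lies between PKR2, a chromatin remodelling factor, and RR10 (ARR10, a type-B cytokinin response regulator), neither of which was analysed here. Of the 3 genes on each side, AT4G31890 and AT4G31930 had a probe set that was kept. AT4G31890 had group means of 5.03 to 5.87 and passed in no comparison. AT4G31930 had group means of 5.20 to 7.03 and passed for no BAP effect, and was lower in ARR5::GFP cells than in untreated procambium by 1.67 on the log2 scale (limma adjusted p = 0.00528), a call lost without untreated procambium array 2 (0.0723). BAT1 was higher in the ARR5::GFP cells than in that group.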

How the data were processed

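Each of the 18 arrays has a deposited log2 signal for 22810 probe sets, which the submitters' processing notes credit to GCRMA. The version, and which arrays were normalised together, are not stated in the labels or files. Range and scale were checked on the values. Arrays give no read depth, and precision rests on how many there are.

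Groups follow the labels, which call the arrays biological replicates. The p-values set a difference of group means against the spread between these arrays. One untreated procambium title carries a 3 before a replicate number of 2, and 2 was used.

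The values were used without further scaling. After the 64 control probe sets were left out, probe sets at log2 5 on at least 2 arrays were kept (13202 of the 16 ARR15::GFP arrays, 13465 of all 18). limma 3.58.1 in R 4.3.3 fitted a mean per group (10 and 11 residual degrees of freedom) with an intensity trend, and calls used a Benjamini-Hochberg adjusted p of 0.05 over all probe sets kept. The 18-array fit served the ARR5::GFP comparison. The fits were tested on simulated data. Where the dimmer group had no array at log2 5, the fold is given as at least N-fold, the brighter mean against log2 5, and no fold is given where this is under 1.

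Genes came from the platform annotation: 13513 probe sets have 1 gene, 503 several and 8730 are not listed. Of the first, 13436 matched the reference gene table (TAIR10.1). BAT1, the lists and the tests were chosen with earlier results of these data known. Lists were entered by locus code and checked against the reference symbols: of 100 genes besides BAT1, 92 had the entered symbol, 13 of these a probe set and 7 were kept. The text names BAT1, every inactivation gene measured, up to 3 called members of each other list, levels of any list member, the 10 most and 5 least correlated genes, and 3 neighbours on each side. The tests of differences between BAP effects, and the genes with a symbol most like BAT1, were added after values were seen. Alternatives were other scalings, filters on dim probe sets, leaving out each array, a replicate block and other measures of likeness.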

Additional observations from a re-analysis of the deposited data

Results flagged for a closer look

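LBD16, a transcription factor of lateral root founder cells, was singled out because its BAP effect differed between zones by a test of the difference itself. The effect in cambium minus that in procambium was -2.26 (SE 0.67, limma adjusted p = 0.0476), where 8.97% of all probe sets passed. The call was lost with median-centred arrays (0.0586), quantile scaling (0.0536), a filter at log2 6 (0.0537), no filter (0.0946) and a replicate block (0.0659), and without most single arrays. Its BAP cambium arrays all lay below log2 5, so the size rests on values near background.

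AT2G25150 was singled out for the same reason, with the opposite sign of BAP effect in each zone. Its rise in cambium was smaller than that in procambium: cambium minus procambium was -2.06 (SE 0.56, limma adjusted p = 0.0344). All untreated arrays of both zones lay below log2 5, and so did the BAP cambium mean, so this size rests on values near background. That call was lost with a replicate block (0.0614) and without any of 7 single arrays. BAT1 had a more negative difference than either in the same contrast (-2.88), which was not tested.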

How the results depend on the processing

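All BAT1 differences moved by less than the within-group SD of 0.80, which includes the ARR5::GFP pair, under median centring and quantile scaling. Array medians lay between 4.61 and 4.99, so centring had little room to move a difference, and staying under this bar says little. The bar is also wider than the smallest differences it was set against (-0.27 and -0.29). With 1 array left out the BAP difference ranged from -4.66 to -3.85 in cambium, -1.67 to -1.35 in transition cambium, -1.67 to -0.99 in procambium and -2.48 to -2.21 on average. ARR5::GFP cells minus untreated procambium ranged from 0.90 to 3.36. Of 182 single-gene tests 41 were called, and 19 of these were lost without some 1 array.

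Without a filter on dim probe sets the calls among the listed genes were 0 for BAP in cambium, 0 for the averaged BAP effect, 1 for untreated cambium against procambium and 1 for ARR5::GFP cells against untreated procambium, against 2, 2, 2 and 0; the call gained in the last is of a gene outside the 7, which the filter had left out. Over all probe sets, BAP cambium against transition cambium gave 82 calls without the filter and 167 with it. With 1 array left out the listed calls ranged from 0 to 1 for BAP in cambium, 0 to 1 for BAP in transition cambium, 0 to 3 for the averaged effect, 1 to 3 for untreated cambium and 0 to 3 for untreated transition cambium against procambium, and 0 to 1 for ARR5::GFP cells; the cause was not tested.

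Replicate numbers gave no sign of pairing the samples. Over 36 same-numbered pairs the deviations from group means correlated at a median of -0.043 (range -0.523 to 0.278), with 2 pairs over 0.1. Over 70 differently numbered pairs the median was 0.006 (range -0.345 to 0.523), with 21 pairs over 0.1. What the arrays of those pairs share was not tested. A replicate block lost 5 single-gene calls, among them LBD16 in transition cambium (adjusted p = 0.0505) and the averaged AT1G27190 call (0.0747), and left each count of listed calls within 1.5 times.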
